A study of Mus musculus with 21 samples.

Results

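The regions described here are 663 stretches of the mouse genome, each 1 kb long, that carried the histone mark H3K4me2 in hepatocytes with Arid1a and lay outside the called peaks for most of their length in hepatocytes labelled as Arid1a knockout. The genome was divided into 1-kb bins, and peaks of a list had to cover 500 bp or more of a bin for it to count as marked there. Member bins were chosen by being marked in all 3 wild-type (WT) lists and in none of the 3 knockout (KO) lists, out of 148331 bins marked in at least 1 of the 6 lists. They make up 2.01% of the 33003 bins marked in all 3 WT lists. The reverse choice, all 3 KO lists and no WT list, held 34 bins, or 0.175% of the 19470 bins marked in all 3 KO lists. Both shares follow from the choice itself and are descriptions.

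The chromatin came from primary hepatocytes obtained by perfusing the livers of mice at postnatal day 90, on a mixed background of C57/B6 and 129. WT animals have the genotype Arid1a Fl/Fl, with loxP-flanked alleles and no Cre. KO animals have the genotype Arid1a Fl/Fl; Alb-cre, in which Cre is driven by the albumin promoter, which directs deletion to hepatocytes and can reach bile duct cells that share their progenitor, while endothelial, Kupffer and stellate cells keep the gene. H3K4me2 was measured by chromatin immunoprecipitation and sequencing (ChIP-seq) in 3 WT and 3 KO libraries, C/EBPα in 2 WT and 2 KO libraries, and tagged ARID1A with a V5 antibody in 1 library of the genotype V5-Arid1a. Each of these 11 libraries has 1 list of peaks, and the 10 input samples were not used here. The labels do not say whether libraries of one group came from separate animals, so p-values measure only the spread between these samples. Whether Arid1a was deleted cannot be checked in peak lists, and the genotypes are as labelled.

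Dimethylation of lysine 4 on histone H3 marks active and poised promoters and enhancers, and at enhancers it typically flanks the sites where transcription factors bind. ARID1A is a DNA-binding subunit of the BAF form of the SWI/SNF complex, which uses ATP to slide or evict nucleosomes and so opens enhancers to transcription factors. C/EBPα is a leucine-zipper transcription factor of mature hepatocytes that controls genes of plasma proteins, the acute phase and intermediary metabolism.

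Few member bins touched a gene start, and promoter windows inside or just beyond member bins are shown first because their sequence can be read directly. The windows of C9 and Mbl1 hold no base of a member bin. The windows run from 250 bases before to 50 bases after a transcription start in RefSeq annotation of GRCm38.p6, the assembly that mm10 names, and are written 5′ to 3′ on the strand of the gene. Capitals mark the motif TTGCNNAA, a form of the C/EBP recognition sequence, searched on both strands. Lcn2, which encodes a siderophore-binding protein of the acute phase, had its window inside a member bin (chr2:32387690-32387989, minus strand), with C/EBPα peaks in all 4 lists and a V5-Arid1a peak. C9, a component of the terminal complement complex, had a window just beyond the end of its member bin (chr15:6445096-6445395, plus strand), again with C/EBPα peaks in all 4 lists and a V5-Arid1a peak. The C9 member bin itself had C/EBPα peaks in all 4 lists and no V5-Arid1a peak. Mbl1, a mannose-binding lectin that starts the lectin pathway of complement, also had its window just beyond the member bin (chr14:41151206-41151505, plus strand), with C/EBPα in all 4 lists and without the motif. Ugt3a1, a sugar-conjugating enzyme, had a window inside a member bin (chr15:9279579-9279878, plus strand) without a C/EBPα peak in any list. Gm30536, a predicted gene, had a window inside a member bin (chr2:166194173-166194472, plus strand) with C/EBPα peaks in both WT lists and in neither KO list. Lcn2, Ugt3a1 and Gm30536 were chosen for display after their values were seen.
Lcn2: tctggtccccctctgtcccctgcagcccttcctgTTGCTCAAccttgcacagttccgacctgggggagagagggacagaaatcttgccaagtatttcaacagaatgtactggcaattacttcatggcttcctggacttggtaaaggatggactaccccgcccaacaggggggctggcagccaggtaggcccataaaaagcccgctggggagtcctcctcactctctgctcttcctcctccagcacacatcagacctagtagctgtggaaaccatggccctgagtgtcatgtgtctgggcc
C9: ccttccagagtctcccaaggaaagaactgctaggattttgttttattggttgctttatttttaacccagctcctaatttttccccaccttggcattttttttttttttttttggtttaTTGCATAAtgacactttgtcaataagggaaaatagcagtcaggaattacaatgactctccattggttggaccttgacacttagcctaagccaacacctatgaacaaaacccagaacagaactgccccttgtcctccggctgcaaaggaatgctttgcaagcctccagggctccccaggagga
Mbl1: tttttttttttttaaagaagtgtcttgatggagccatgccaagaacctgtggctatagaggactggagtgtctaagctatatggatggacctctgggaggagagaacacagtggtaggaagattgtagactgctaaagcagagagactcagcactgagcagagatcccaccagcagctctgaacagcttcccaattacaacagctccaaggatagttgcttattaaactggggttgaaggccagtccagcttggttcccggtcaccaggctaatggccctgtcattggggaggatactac
Ugt3a1: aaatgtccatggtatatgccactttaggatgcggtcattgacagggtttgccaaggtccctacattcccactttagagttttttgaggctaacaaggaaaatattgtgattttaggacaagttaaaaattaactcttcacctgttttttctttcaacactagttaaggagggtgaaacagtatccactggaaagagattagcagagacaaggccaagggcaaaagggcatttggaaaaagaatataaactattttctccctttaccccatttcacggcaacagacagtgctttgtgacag
Gm30536: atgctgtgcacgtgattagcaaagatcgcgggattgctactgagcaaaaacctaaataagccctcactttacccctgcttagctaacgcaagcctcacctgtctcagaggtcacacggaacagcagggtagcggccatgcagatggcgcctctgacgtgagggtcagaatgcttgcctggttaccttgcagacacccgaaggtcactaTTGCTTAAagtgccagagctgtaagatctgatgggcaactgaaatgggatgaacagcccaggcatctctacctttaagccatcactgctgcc

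Among all promoter windows, those in member bins were poor in the CG dinucleotide. In total 27 windows of 24 genes lay wholly inside member bins, predicted genes included, against 5432 windows in bins marked in all 6 lists. The median number of CG dinucleotides per window was 4 in member bins, 23 in bins marked in all 6 lists and 7 among all 32851 windows, and the median GC content was 50.7%, 62.3% and 52.7% in that order. The GC box GGGCGG was found in 14.8% of the windows in member bins, in 66.0% of those in bins marked in all 6 lists and in 35.7% of all windows. The motif TTGCNNAA was found in 8 of the 27 (29.6%), in 8.21% and in 10.8%. Matches to TTCNNNGAA, the STAT element, stood in 14.8%, 6.37% and 8.30%, matches to the AP-1 element TGANTCA in 3.70%, 3.87% and 7.81%, and matches to TATAAA in 7.41%, 5.93% and 13.6%. The HNF4 sequence CAAAGTCCA had no match in the member windows and stood in 0.475% of all windows. Each motif was searched on both strands, the motifs can overlap one another, and a match describes letters and not a bound site. With 27 windows these shares rest on 0 to 8 windows per motif.

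The 6 H3K4me2 lists differed widely among replicates of the same genotype. WT lists 1 to 3 held 34849, 61246 and 49800 peaks and KO lists 1 to 3 held 24908, 54544 and 175794, and they covered 48.4, 91.9 and 51.7 Mb in WT and 28.0, 85.6 and 102 Mb in KO. KO list 3 consisted of short peaks, with a median width of 429 bp against 634 to 918 bp in the other lists. Its peaks were also of lower significance, with a median −log10 q by the authors of 1.14 against 2.42 to 4.75. The 2 lists numbered 2 marked many more bins around endothelial genes than the rest, with 102 (WT) and 115 (KO) bins summed over 14 marker genes against 12 and 13 in the other WT lists and 5 and 33 in the other KO lists. All 14 endothelial genes were marked in both lists numbered 2, while 3 to 12 were marked in the others. Kupffer cell and leukocyte markers gave 5, 28 and 6 bins in WT and 2, 31 and 17 in KO, and 5 of these 15 genes were at 0 in every list. Stellate cell markers gave 4, 26 and 7 bins in WT and 3, 23 and 31 in KO. The part of other liver cells in the results below was not tested. All 8 hepatocyte markers that were checked, Alb, Ttr, Apoa1, Hnf4a, Cebpa, Serpina1a, Cps1 and Fga, had bins marked in all 6 lists.

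KO list 2 decided how many bins became members. Of the 33003 bins marked in all WT lists, 21742 (65.9%) were marked in KO list 1, 31993 (96.9%) in KO list 2 and 23141 (70.1%) in KO list 3. Without KO list 2 the same choice gave 5718 bins instead of 663, while it gave 727 without KO list 1 and 869 without KO list 3. Without WT list 1 there were 2208 bins and without WT list 3 there were 1737. Reducing every list to its top 24908 peaks, the number in the shortest list, left 558 bins.

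Many member bins were still partly covered in the KO lists. The median length in peaks was 750, 864 and 766 bp of each bin in WT lists 1, 2 and 3, and 0, 236 and 0 bp in KO lists 1, 2 and 3. A KO peak reached into the bin by at least 1 bp at 160 member bins (24.1%) in KO list 1, 428 (64.6%) in KO list 2 and 306 (46.2%) in KO list 3. No base of 144 member bins (21.7%) lay in any KO peak, while 241 were touched by 1 KO list, 181 by 2 and 97 by all 3. For 74 bins (11.2%) the entire WT peaks over the bin were free of KO peaks, and for the other 589 some part of a WT peak still had one. A bin marked in at least 1 KO list adjoined 355 members (53.5%), and a bin marked in all 6 lists adjoined 62 (9.35%). Member bins therefore include edges of broader marked regions as well as separate sites. The nearest KO peak to the 144 untouched bins lay at a median of 16841 bp in KO list 1, 4138 bp in KO list 2 and 1802 bp in KO list 3.

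**Figure D1:**
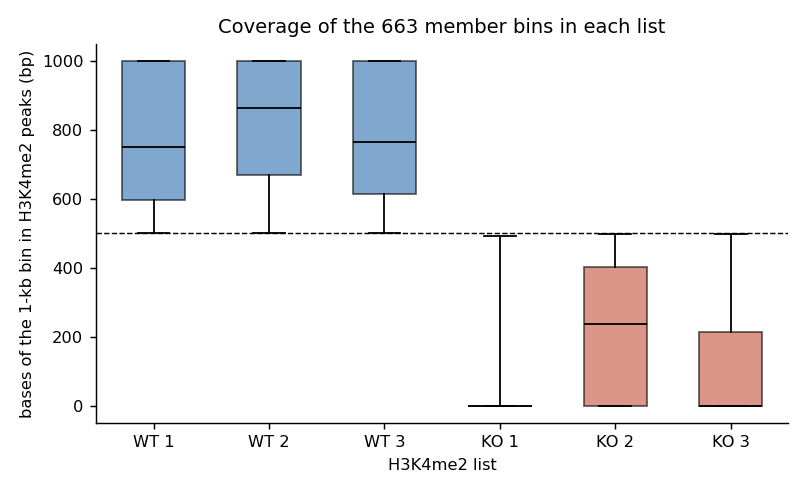
Bases of each of the 663 member bins that lie in H3K4me2 peaks, in bp, for the 3 WT lists (blue) and the 3 KO lists (red). Boxes span the quartiles with the median as a line, whiskers reach the lowest and highest values, and the dashed line is the 500 bp that marks a bin; the WT medians are 750 to 864 bp and the KO medians 0 to 236 bp.

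Near the limit of 500 bp the choice separated bins of similar coverage. In 170 member bins the lowest WT coverage exceeded the limit by less than 50 bp, and 239 bins fell short of it in WT by at most 50 bp and were left out. In 119 member bins the highest KO coverage was at most 50 bp under the limit, and 171 bins were left out for a KO coverage less than 50 bp over it. At the other extreme, 77 member bins were covered over all 1000 bp in every WT list, and 20 of these had 0 bp in every KO list. Those 20, a class defined after the data were seen, lay in or nearest to Ces1f, Sox9, Bcl6, Orm1 (3 bins), C4b (2 bins), Paqr9, Bicc1, Nhs, Unc45b, Fmn1, Irf2, Acsl1, Gm826, Rbfox3, Zfp469, Pdia5 and Clmn.

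Most member bins stood alone. They formed 636 runs, of which 612 were single bins, 21 were pairs and 3 were runs of 3 bins. They drew on 620, 619 and 629 separate peaks in WT lists 1, 2 and 3, and bins of one broad peak share that peak's values. By chromosome, members made up from 0.971% (5 of 515 bins on chromosome X) to 3.14% (57 of 1816 bins on chromosome 10) of the bins marked in all WT lists.

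Peaks over member bins were of middling rank in their own lists. Ranks are percentiles of the authors' −log10 q within a list, where 100 is the strongest peak. The median percentile of the member bins was 47.6, 68.1 and 54.7 in WT lists 1, 2 and 3, against 80.7, 89.3 and 83.5 for bins marked in all 6 lists. Averaged over the WT lists, member bins had a median of 54.2 with a range from 8.92 to 95.0, bins missed by 2 KO lists 67.7, bins missed by 1 KO list 78.2 and bins marked in all 6 lists 84.1. The WT peaks were also narrower over member bins, with median widths of 1367, 1887 and 1367 bp against 2808, 3960 and 2625 bp. These values come from the lists that chose the members and are given without a test. Without KO list 2 the median percentile of the bins chosen was 66.4.

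**Figure D2:**
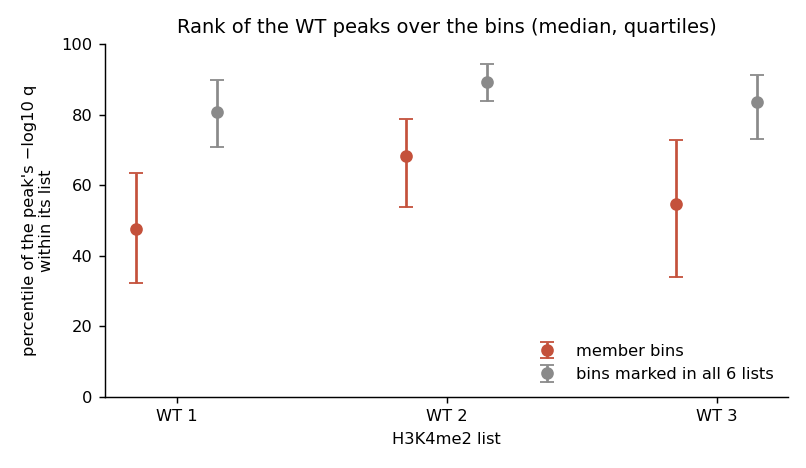
Percentile of the authors' −log10 q within each WT list for the peak over a bin; points are medians over bins and bars span the quartiles. Member bins (red) have medians of 47.6, 68.1 and 54.7, and bins marked in all 6 lists (grey) of 80.7, 89.3 and 83.5.

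Member bins lay away from the ends of genes. Only 75 of the 663 (11.3%, 9.0 to 14.0% by the exact Clopper-Pearson 95% interval) were within 1 kb of an annotated end of a protein-coding gene, either the start or the 3′ end, since the gene table used here has no strand. Another 362 (54.6%) lay elsewhere inside a gene and 226 (34.1%) outside genes, of which 83 were over 50 kb from any. Bins marked in all 6 lists had the opposite layout, with 59.9% at gene ends, 31.7% elsewhere in genes and 8.39% outside. The gene-end share was higher where more KO lists marked the bin, from 11.3% with none through 26.9% with 1 and 44.2% with 2 to 59.9% with 3. The median distance to a gene end was 13254 bp for members and 519 bp for bins marked in all 6 lists. The intervals here and below count bins and cover counting error only, and neighbouring bins are not independent. Without KO list 2 the gene-end share of the bins chosen was 26.0%, and with a 5-kb window around gene ends it was 30.0%.

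**Figure D3:**
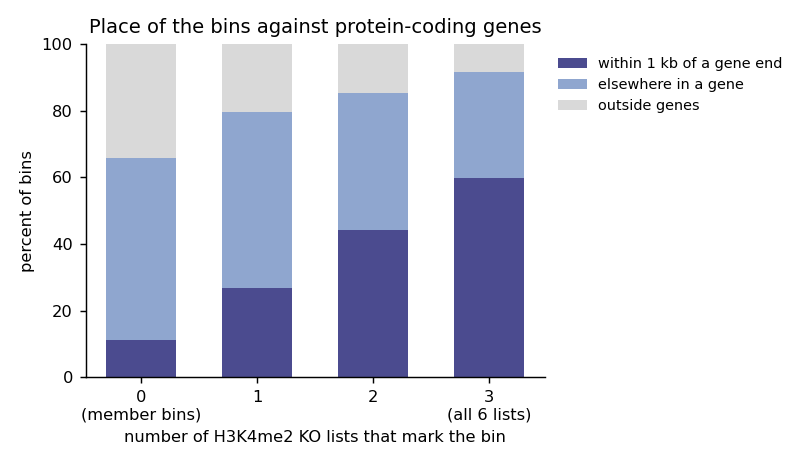
Percent of bins within 1 kb of an end of a protein-coding gene, elsewhere inside a gene, or outside genes, for bins marked in all 3 WT lists and in 0, 1, 2 or 3 KO lists. The gene-end share is 11.3% for the member bins (0 KO lists) and 59.9% for bins marked in all 6 lists.

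Some gene-end members lay beside a mark that the KO lists kept. KO peaks of all 3 lists reached into 22 of the 75 (29.3%), against 75 of the 588 members away from gene ends (12.8%), and 18 (24%) adjoined a bin marked in all 6 lists, against 44 (7.48%). The 20 genes whose gene-end members had the highest WT rank were taken with 1 bin per gene. All 3 KO lists touched 13 of these bins, and 12 adjoined a bin marked in all 6 lists. The genes of these 13 were Pigt, which encodes a subunit of the GPI transamidase, Polr3b, which encodes a subunit of RNA polymerase III, Tbce, a tubulin-folding factor, Eif4a2, a translation initiation helicase, Nme3, a nucleoside diphosphate kinase, Rfc2, which encodes a subunit of the replication clamp loader, and Lin37, of the DREAM complex, besides Zfp697, Zfp14, Rnf39, Tjp3, Dpp7 and Mfap1a. Their KO coverage ranged widely below the limit, from 1 bp (Nme3) to 479 bp (Pigt) in KO list 1, from 231 bp (Rnf39) to 496 bp (Polr3b) in KO list 2 and from 40 bp (Mfap1a) to 468 bp (Rnf39) in KO list 3. Mbl1, Plce1, Gm10033 and Psmd9 were touched by 2 KO lists and C9 by 1. At C9 the bin had 845, 845 and 560 bp in WT and 0, 173 and 0 bp in KO. Pde9a and Sox9 had the 2 of these 20 bins that no KO peak reached. A second gene-end member of Pde9a, of the same WT rank, had 295 bp in KO list 2.

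Orm1, which encodes the plasma glycoprotein orosomucoid 1 of the acute phase, had member bins over most of its length and beside it. Member bins took up 5 of the 6 bins marked in all WT lists within 10 kb of the gene (chromosome 4, 63344556 to 63348163), and no bin there was marked in all 6 lists. The 5 bins form the runs 63342001 to 63344000, below the lower end of the gene, and 63345001 to 63348000, over the gene body. One peak per WT list spanned them, with −log10 q of 12.4, 13.2 and 3.24. The counts that follow cover 63341001 to 63349000, which adds 1 bin on each side. KO lists 1 and 2 had no peak there and KO list 3 had 1 peak of 932 bp that lay mostly in the gap between the runs. Over the same stretch C/EBPα had 4 peaks in each WT list, 2 in KO list 1 and 4 in KO list 2, and V5-Arid1a had 2. The mouse genome holds near-identical Orm genes next to each other, so reads may have been shared among them.

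Sox9, which encodes a transcription factor of bile duct and progenitor cells, had 3 members among its 4 bins marked in all WT lists (gene at chromosome 11, 112782210 to 112787757). A pair of bins and a single one, 112780001 to 112782000 and 112783001 to 112784000, lie on either side of its lower end. From 112779001 to 112785000, which adds 1 bin on each side, the WT peaks had −log10 q of 12.2, 8.54 and 4.26. Peaks covered 3844, 3908 and 3919 bp of this wider stretch in the WT lists and 0, 781 and 923 bp in the KO lists. The 3 member bins themselves had 0 bp in every KO list. The choice of the bins sets this separation in part. Because SOX9 marks cells other than hepatocytes, the whole list of biliary and fetal markers is given beside it. It summed to 11, 22 and 13 marked bins in WT and 2, 15 and 9 in KO, with Sox9 itself at 4, 5 and 5 against 0, 1 and 1. The bile duct keratins Krt7 and Krt19 and the fetal gene Dlk1 were at 0 in all 6 lists, and Epcam had 1 bin in each. The part of bile duct cells in the Sox9 result was not tested, and in bulk chromatin fewer cells of a type and less mark per cell cannot be told apart.

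C4b, which encodes complement component 4, had a run of 3 member bins inside the gene (chromosome 17, 34738001 to 34741000). The stretch from 34737001 to 34742000, which adds 1 bin on each side, had 4004, 4792 and 3799 bp in peaks in WT. In KO it had 679, 0 and 612 bp. Apart from 1 short peak of KO list 3, the KO coverage lay to one side of the run. C4b has a close copy in the mouse genome, which limits how far short reads can be placed.

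A run of 3 bins lay 95134 bp from Bcl6, its nearest protein-coding gene, which encodes a transcriptional repressor (chromosome 16, 24084001 to 24087000). The promoter table, which also holds genes that do not code for protein, has a transcription start 1311 bp from the run. From 24083001 to 24088000, which adds 1 bin on each side, the WT peaks had −log10 q of 10.9, 8.99 and 4.61. Peaks covered 3708, 4528 and 3687 bp of this wider stretch in WT and 717, 0 and 1017 bp in KO. In the 3 member bins themselves only KO list 3 had peak bases, 17 bp in 1 bin. The first bin of the run held C/EBPα peaks of WT lists 1 and 2 and of neither KO list. Another C/EBPα site in the same WT peaks, outside the member bins, kept its peak in all 4 lists.

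**Figure D4:**
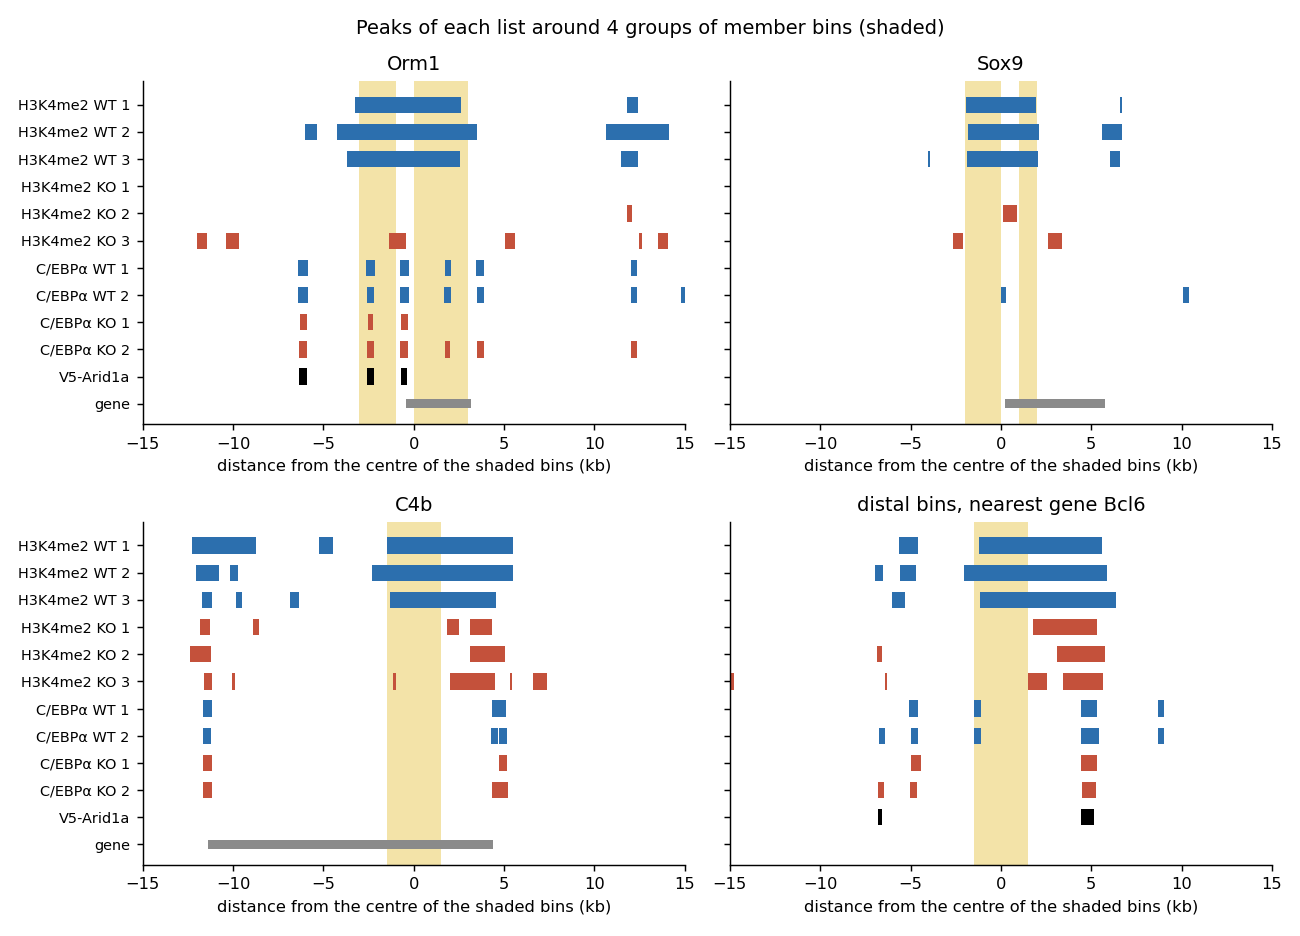
Peaks of every list around 4 groups of member bins, as distance in kb from the centre of the shaded bins; blue bars are WT peaks, red bars KO peaks, black bars V5-Arid1a peaks and grey bars the named gene. At Orm1, KO lists 1 and 2 have no H3K4me2 peak over the shaded bins, and near Bcl6 the C/EBPα peak in the shaded bins is in both WT lists and in neither KO list.

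Other genes with several members were Clmn, with 6 of 12 bins, Tnfaip8l1 with 5 of 10, Egfr with 5 of 19, Rfx4 with 4 of 6, Pde9a with 3 of 3 and Gm826 with 3 of 6. Clmn encodes the actin-binding protein calmin, Egfr the receptor of epidermal growth factor, and Pde9a a phosphodiesterase that breaks down cyclic GMP. Mydgf, with 4 of 7 bins, overlaps Tnfaip8l1 and shares its bins. Around the Pde9a members (chromosome 17, 31385001 to 31393000) the H3K4me2 peaks took 4457, 4763 and 3643 bp in WT and 0, 295 and 144 bp in KO. No C/EBPα or V5-Arid1a peak was present in this stretch. At Fgfr3, which encodes a fibroblast growth factor receptor, 2 adjacent bins were covered over 1000 bp in every WT list and had 0 bp in KO lists 1 and 3 and 259 and 71 bp in KO list 2. The other pairs among the 10 longest runs were near Mreg, at a distance of 221232 bp, and in Tnfaip8l1, Orm1 and Rfx4.

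None of the 8 hepatocyte markers named above had a member bin in the gene or within 10 kb. Of the 341 genes in 21 lists of liver functions, regulators and cell markers, 20 had one (5.87%), against 520 of all 21883 protein-coding genes (2.38%). The lists were chosen for liver and hold many marked genes, so nothing is read from that difference. Several of these 20 had a single member beside bins that the KO lists kept. Among lipid genes, Apoa2, an apolipoprotein of high-density lipoprotein, had 1 member and 8 bins marked in all 6 lists, and Ppara, the nuclear receptor of fatty acid oxidation, had 1 and 11. Pcx, the enzyme that makes oxaloacetate from pyruvate, had 1 member and 6 constant bins.

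The plasma protein list had 3 of 25 genes with a member (C4b, Serpina1c and Itih1), the acute phase list 2 of 15 (Orm1 and Lcn2), the list of growth hormone and sex-biased liver genes 2 of 16 (Egfr and C9) and the hepatocyte transcription factors 2 of 19 (Esr1, the estrogen receptor, and Nr1i3, the xenobiotic receptor CAR). One gene had a member among 9 major urinary protein genes (Mup20), 20 cytochrome P450 and xenobiotic genes (Cyp2e1), 18 urea cycle and amino acid genes (Oat, ornithine aminotransferase), 20 cell cycle genes (Cdk1, the mitotic kinase), 14 endothelial genes (Stab2), 11 biliary and fetal genes (Sox9) and 12 neuronal genes (Rbfox3). The lists of bile acid, clock, immediate early, growth restraint, SWI/SNF subunit, Kupffer cell, stellate cell and housekeeping genes had none. At Cyp2e1, an ethanol-oxidising P450, the member lay 3818 bp from the gene and was covered over 1000 bp in every WT list and over 0, 0 and 247 bp in the KO lists, and no bin near this gene was marked in all 6 lists. Mup20 and Serpina1c belong to families of near-identical copies, where reads are hard to place.

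At Lcn2 the member bin (chromosome 2, 32387001 to 32388000) had 536, 801 and 637 bp in WT peaks and 0 bp in every KO list. The WT peaks there were at percentiles 21.6, 43.0 and 72.8 of their lists by −log10 q. C/EBPα peaks of all 4 lists and a V5-Arid1a peak overlapped the bin and ran past its end. The full widths of the C/EBPα peaks were 543 and 423 bp in WT and 278 and 269 bp in KO. The V5-Arid1a peak was 456 bp wide. These lists hold no signal values, so the widths do not compare binding. Of the other bins near Lcn2 marked in all WT lists, 3 were marked in all 6.

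C/EBPα was not used to choose the members, and it had peaks on a smaller share of them in both KO lists than in either WT list. A C/EBPα peak overlapped 207 of the 663 member bins (31.2%) in WT list 1 and 254 (38.3%) in WT list 2, against 144 (21.7%) in KO list 1 and 152 (22.9%) in KO list 2. Both WT values lay above both KO values. The means were 34.8% ± 5.01 (SD, n = 2) and 22.3% ± 0.853 (SD, n = 2), a KO minus WT difference of -12.4 percentage points (two-sided exact permutation test, p = 0.33, the smallest that 2 against 2 libraries can give). The difference was larger than the spread between replicates and could not pass 0.05 in this design. On bins marked in all 6 lists the shares were 17.9% and 23.4% in WT and 24.1% and 25.1% in KO, a difference of 3.91 points (exact permutation test, p = 0.33) in the other direction, also without overlap.

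Set against the bins marked in all 6 lists within each library, the member bins differed by -16.4 points between KO and WT (exact permutation test over the 4 libraries, two-sided, p = 0.33). The classes between them had no clear direction: bins missed by 2 KO lists differed by -1.21 points (exact permutation test, p = 1) and bins missed by 1 KO list by 1.53 points (exact permutation test, p = 1). C/EBPα peaks numbered 17733 (WT list 1), 23646 (WT list 2), 16178 (KO list 1) and 17781 (KO list 2). WT list 2, the longest, also had the highest share on members. The part of C/EBPα list length in these differences was not tested. Without KO list 2 of H3K4me2, the bins chosen differed by -2.17 points (exact permutation test, p = 0.667), with overlap between the genotypes. With every H3K4me2 list reduced to the same number of peaks the difference was -6.81 points. On the 144 members without a base in any KO peak, the C/EBPα shares were 29.2% and 36.8% in WT and 13.9% in both KO lists, a difference of -19.1 points (exact permutation test, p = 0.33).

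**Figure D5:**
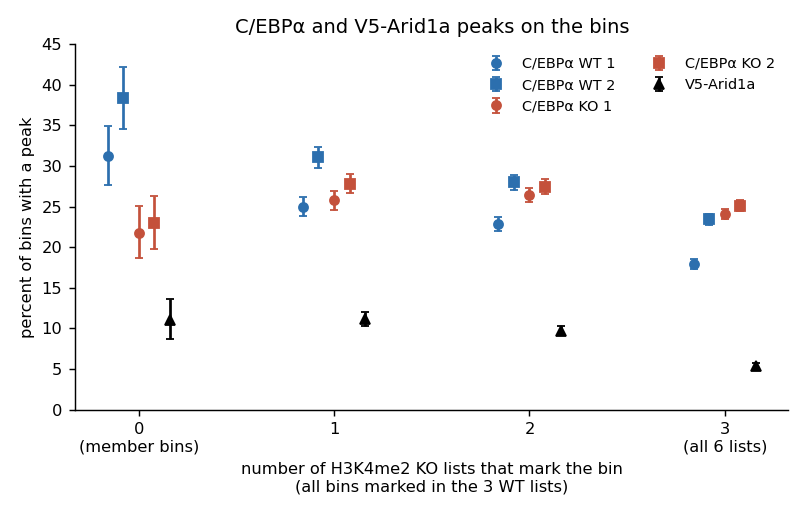
Percent of bins with a C/EBPα peak in each of the 4 lists (blue WT, red KO) and with a V5-Arid1a peak (black), for bins marked in all 3 WT lists and in 0, 1, 2 or 3 KO lists; bars are exact 95% intervals that cover counting only. On the member bins both WT points (31.2% and 38.3%) lie above both KO points (21.7% and 22.9%), and on bins marked in all 6 lists both lie below.

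On the 588 members away from gene ends the C/EBPα shares were 32.7% and 40.0% in WT and 22.1% and 23.1% in KO, a difference of -13.7 points (exact permutation test, p = 0.33), against 3.26 points on bins of the same place marked in all 6 lists (exact permutation test, p = 0.667). The members minus these bins gave -17.0 points (exact permutation test, p = 0.33). At gene ends the 75 members gave 20% and 25.3% in WT and 18.7% and 21.3% in KO, with overlap and a difference of -2.67 points (exact permutation test, p = 0.667). Set against gene-end bins marked in all 6 lists, these members differed by -7.02 points, without overlap (exact permutation test, p = 0.33). Whether the difference itself depends on the place was not tested.

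Counted bin by bin, C/EBPα had peaks on 200 members in WT lists 1 and 2, and 56 of these (28.0%, exact 95% interval 21.9 to 34.8%) had none in either KO list. Over all 1-kb bins of the genome with C/EBPα in both WT lists the share was 18.9%, and on bins marked in all 6 H3K4me2 lists it was 2.66% (80 of 3003). Bins missed by 2 KO lists gave 8.09% and bins missed by 1 KO list 3.86%. The reverse, C/EBPα in both KO lists and in neither WT list, was found at 1 of 125 members (0.8%), against 5.96% over the genome and 9.68% on bins marked in all 6 lists. On 115 members (17.3%) C/EBPα had a peak in all 4 lists, on 397 (59.9%) in none and on 94 in another combination. Bins marked in all 6 H3K4me2 lists had no C/EBPα peak at 70.2% and a peak in all 4 C/EBPα lists at 15.8%. Bins missed by 1 KO list gave 66.7% and 19.6%, and bins missed by 2 gave 64.4% and 19.9%. A lack of C/EBPα was thus common to all these classes and least frequent on members. Among members with C/EBPα, a peak in all 4 lists was more frequent than one in the WT lists alone.

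Away from gene ends lay 588 of the 663 members and 185 of the 200 with C/EBPα in both WT lists. Of the 56 members that had C/EBPα in the WT lists only, 55 were away from gene ends. The one with the highest H3K4me2 rank was inside Tigar, which encodes a fructose bisphosphatase that limits glycolysis (chromosome 6, 127107001 to 127108000), with 1000 bp in every WT list and 0, 309 and 0 bp in the KO lists. Next came the bin near Bcl6 and 2 adjacent bins inside Rfx4 (chromosome 10, 84859001 to 84861000). Others, named after their values were seen, were inside Cidec, which encodes a lipid droplet protein, inside Oat and Cdk1, near Acot11, a fatty acyl-CoA thioesterase gene, at a distance of 42993 bp, near Prdm1, a transcriptional repressor gene, at 9173 bp, and 20243 bp from Sox9. At Oat the bin had 646, 1000 and 1000 bp in WT and 0, 410 and 204 bp in KO. At Cdk1 it had 935, 902 and 841 bp in WT and 239, 455 and 0 bp in KO.

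The members with C/EBPα in both WT lists and the highest H3K4me2 ranks were, besides Tigar, at ends of Tbce, Rnf39, Eif4a2 and C9. Tbce, Eif4a2 and C9 had C/EBPα in all 4 lists, and Rnf39 lacked it in KO list 1. All 3 members inside Gm826 also had C/EBPα in all 4 lists, while none of the 3 around C4b or the 3 around Pde9a had it in any.

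The V5-Arid1a library, from mice that carry tagged Arid1a, had a peak on 73 member bins (11.0%, exact 95% interval 8.73 to 13.6%) and on 5.40% of the bins marked in all 6 lists. It has no replicate, so no test was made. Away from gene ends the shares were 11.4% on members and 10.1% on bins marked in all 6 lists, and at gene ends they were 8% (6 of 75) and 2.25%. Away from gene ends, bins missed by 2 KO lists (13.7%) or by 1 (15.3%) had higher shares than members. A V5-Arid1a peak stood on 56 of the 200 members with C/EBPα in both WT lists and on 5 of the 56 whose C/EBPα peak was missing in both KO lists. On bins marked in all 6 H3K4me2 lists these counts were 677 of 3003 and 6 of 80. Of the 73 members with V5-Arid1a, 8 had no C/EBPα peak in any list. Among bins with V5-Arid1a in the other classes, that held for 148 of 947 marked in all 6 lists. It held for 84 of 595 missed by 2 KO lists and for 136 of 926 missed by 1. The 5 bins with V5-Arid1a and C/EBPα in the WT lists only were nearest to Fignl2, E2f8, Laptm4b, Plekha6 and Rnf144a. By H3K4me2 rank, the highest members with V5-Arid1a were at Psmd9, a proteasome assembly factor gene, beside Orm1 (1555 bp), far from Rplp1 (99282 bp), and inside Atrnl1 and Enpp3.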

How the data were processed

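Peak lists of 11 ChIP-seq libraries were used as the authors deposited them, 1 list per library. The submitters' processing notes list MACS2 2.0.10.20131216, HOMER, Bowtie2 2.2.3 and Picard, in no stated role, and mm10 as the genome, and the filters and read depths are not given in the sources used here. The deposited C/EBPα and V5 lists hold positions and names, with gaps in the numbering of the names. For each broad H3K4me2 peak the authors deposited a score, a fold over the library's local background, and −log10 p and −log10 q values. Each of these depends on the depth of its own library, so they served for ranks within a list; a stricter limit on −log10 q was an alternative. Per the labels, a KAPA kit and a HiSeq instrument served for C/EBPα and V5, and a NEBNext kit and a NextSeq instrument for H3K4me2, so H3K4me2 values were set against the other targets by overlap alone. A bin without a peak is one where none was called, not one without the mark.

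From these lists, marked bins, ranks, distances and overlaps (at least 1 bp with a bin) were computed on chromosomes 1 to 19, X and Y with Python 3.11.15, numpy 2.4.6, pandas 2.3.3 and SciPy 1.17.1, after the code was tested on simulated data. C/EBPα shares were compared by a two-sided exact permutation test over libraries. Genes and promoter windows came from RefSeq GRCm38 tables, with 21883 protein-coding genes; 343 of 344 list entries matched, and 17491 protein-coding genes have a promoter window. Coordinates count from 1. The members, gene lists and tests were chosen with earlier results of these data known. Genes were named by rule: up to 20 with a member within 1 kb of an end, by WT rank; the nearest genes of the 10 longest runs; the 10 with most members within 10 kb; up to 3 per list; and the nearest genes of the top 5 members with C/EBPα in both WT lists and of the top 5 with V5-Arid1a. The alternatives were other coverage limits, bin sizes, grids, peak thresholds and overlaps, each library left out, and a replicate block.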

Additional observations from a re-analysis of the deposited data

How the results depend on the processing

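The number of member bins was 1065 with 250 bp and 429 with 750 bp as the covered length, 1518 with 500-bp bins, 260 with 2-kb bins, and 144 without any base in a KO peak, an alternative chosen after seeing the data. Leaving out 1 H3K4me2 list gave 727 to 5718 bins. A shifted grid (692), peaks with −log10 q of at least 2 (668) and equal numbers of peaks (558) stayed within 1.5 times of 663. The C/EBPα difference on members was negative in all 20 alternatives, from -19.1 to -2.17 points, and so was the members' difference from bins marked in all 6 lists, from -23.0 to -6.04. All alternatives drew on the same C/EBPα lists, and the replicate block leaves both differences unchanged by design, so they are not separate checks. Leaving out 1 library at a time gave -16.0 to -2.17 and -17.2 to -6.04. Neither could pass 0.05. The V5-Arid1a share was 7.71% with 500-bp bins and 8.02% to 11.3% with 1 H3K4me2 list left out. The gene-end share was 7.70% with 250 bp, 15.4% with 750 bp, 8.30% with 500-bp bins, 20.4% with 2-kb bins, 14.9% with equal numbers of peaks, 30.0% with a 5-kb window, 7.64% without any base in a KO peak, and 10.5% to 26.0% with 1 list left out. The median WT percentile was 66.3 with equal numbers of peaks and 46.6 to 66.4 with 1 list left out. The causes of these shifts were not tested.

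Same-numbered WT and KO libraries correlated at -0.0323, 0.313 and 0.178 in H3K4me2 coverage and 0.0263 in C/EBPα peaks, after group means were removed. Differently numbered H3K4me2 libraries ranged from -0.290 to 0.174, so the value of the 2 libraries numbered 2 was the highest. With 2 C/EBPα lists per group, the differently numbered ones can only give the reverse, -0.0263. The numbers were not taken to pair the samples. A replicate block gave -12.4 and -16.4 points (exact sign-flip permutation test, p = 0.5 for both, the smallest 2 pairs allow). Read depth is unknown, so a bin without a KO peak cannot be told from one below the detection limit of its library.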
